A study of Bos taurus with 8 samples.

Results

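Fatty acid uptake and binding genes were followed in bovine uterine epithelial cells given progesterone. The set has 8 genes, taken by symbol from the 28709 genes of the deposited table: the fatty acid transport proteins SLC27A1, SLC27A2, SLC27A3, SLC27A4 and SLC27A6, the cytosolic fatty acid binding proteins FABP3 and FABP5, and the scavenger receptor CD36. Each symbol matched 1 row. The cells were BUTE, an immortalized line of wild-type uterine epithelium derived from a Holstein dairy cow, so all libraries share 1 genetic background. In both groups the cells were first kept for 24 h with insulin-like growth factor 1 but no serum or steroids. They then received, for a further 24 h, 50 ng/ml of the growth factor with either the vehicle DMSO or 10 µM progesterone. Each group had 4 RNA-seq libraries, and they are called here by the numbers of the table's columns: DMSO R1, R3, R7 and R9, and progesterone R1, R2, R3 and R6. Whether the 4 libraries of each group were grown as separate cultures is not stated in the labels, and p-values therefore describe the spread between these libraries, which may be technical.

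Long-chain fatty acids enter cells with the help of membrane proteins and are then held by small carrier proteins in the cytosol. SLC27 proteins sit in the plasma membrane or internal membranes and join the fatty acid to coenzyme A, which traps it inside the cell. CD36 binds fatty acids and oxidized lipoproteins at the cell surface, and FABP proteins carry the fatty acid through the cytosol to sites of oxidation, storage or nuclear receptor signalling. Progesterone prepares the endometrium for pregnancy, and in ruminants the uterine epithelium supplies lipid to the early embryo through its secretions.

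Levels are CPM, counts scaled to a common library total, on TMM-scaled library sizes, a scaling that sets the bulk of genes equal between libraries. Library totals lay between 23810861 and 32509786 estimated counts, so 3 counts, taken here as the floor of a single library, equalled 0.0917 to 0.124 CPM. Transcript lengths were not used here, so CPM values of different genes do not compare their transcript amounts. Sums and ratios of genes are compared between libraries, and a gene's part of a sum is a part of the CPM. DMSO R7 and R9 stood apart from the other libraries across genes: their log2 CPM correlated at 0.992 with each other and at 0.949 to 0.962 with the other 6, which correlated at 0.983 to 0.992 among themselves. Fold changes are therefore given with and without them. The line was also checked against cell type markers. Of 11 epithelial markers KRT8, KRT19, OCLN and CDH1 were above 10 CPM in every library, while EPCAM was between 0.275 and 2.53 CPM and GRHL2, CLDN3 and CLDN4 were at most 0.238 CPM. All 11 were detected, and their sum was 2844 to 3098 CPM with DMSO and 1758 to 2680 CPM with progesterone, without overlap. The 10 stromal markers, all detected, summed to between 13308 and 20609.6 CPM with DMSO and between 12098 and 13286 CPM with progesterone, with VIM at 5814 CPM or more in every library, and its 2 highest sums were those of DMSO R7 (20609.6) and R9 (19083). Of 8 leukocyte and macrophage markers 7 were detected, summing to 4.84 to 11.9 CPM with DMSO and 8.24 to 12.2 CPM with progesterone; CD14 made up most of this at 3.14 to 11.9 CPM, and PTPRC had a count of 0 in all 8 libraries. Of 5 adipocyte markers 4 were detected, summing to 13.4 to 17.6 and 14.9 to 19.5 CPM. LIPE was at 8.55 to 16.3 CPM, PLIN1 at 2.21 to 3.63 CPM and CIDEC at 0.744 to 2.17 CPM, while ADIPOQ had a count of 0 in all 8 libraries and LEP in 7.

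SLC27A2 was the only member called at an adjusted p under 0.05 with all libraries. It encodes the very long-chain acyl-CoA synthetase and fatty acid transporter FATP2, known from liver and kidney, and lies on chromosome 10 (Entrez Gene 535727). Its level was 0.273, 0.294, 0.0679 and 0.151 CPM in DMSO R1, R3, R7 and R9, and 1.99, 0.951, 1.405 and 1.53 CPM in progesterone R1, R2, R3 and R6. All 4 progesterone libraries were above all 4 DMSO libraries, and the lowest progesterone value was 3.24 times the highest DMSO value. The transcript was scarce in vehicle, with 8, 8, 2 and 4 counts in these libraries, and 65, 24, 40 and 37 counts with progesterone. DMSO R7 was below the floor of 3 counts.

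From a mean of 0.197 ± 0.106 CPM with DMSO to 1.47 ± 0.426 CPM with progesterone (SD, n = 4 each), SLC27A2 rose 7.37-fold, with a 95% interval of 3.78 to 14.4 (log2 fold change 2.88 ± 0.43 SE, edgeR quasi-likelihood test, adjusted p = 0.0151). It ranked 42 by p among the genes tested. Without DMSO R7 and R9, the 2 vehicle libraries in which it was lowest, the rise was 5.20-fold, with an interval of 2.66 to 10.2 (edgeR adjusted p = 0.0332). The call ended when progesterone R1 was left out (log2 fold change 2.70, edgeR adjusted p = 0.0569) and when progesterone R6 was (2.86, 0.0551). SLC27A2 passed the filter on low counts through its progesterone libraries alone, and a filter at a mean of 1 CPM would have removed it. The summed epithelial and stromal markers also differed between the groups without overlap. KRT8, at 1348 to 2789 CPM, made up most of the epithelial sum, and 3 of 8 tested epithelial markers had a positive log2 fold change. The stromal sums nearly met, at 13307.6 CPM in DMSO R1 and 13285.9 CPM in progesterone R3. The part of these markers in the SLC27A2 result was not tested.

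Of the 8 members, 6 passed the filter and were tested. One, SLC27A2, was higher with progesterone at an adjusted p under 0.05, where 2.65% of 13557 genes were called and 1.69% were called higher. None of the members was called lower. Without DMSO R7 and R9 SLC27A2 was again the member called, where 1.18% of 13764 genes passed. SLC27A2 was also the one member whose groups did not overlap, which held for 16.2% of the genes tested. An unadjusted p under 0.05 was found for SLC27A2 and SLC27A4, and for 26.8% of all genes. The median log2 fold change of the 6 genes was 0.14, against -0.0072 over all genes, and 0.32 against 0.011 without R7 and R9. Because SLC27A2 could enter the test only by being high in progesterone, the counts and the median describe the tested genes and do not stand for all 8.

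**Figure D1:**
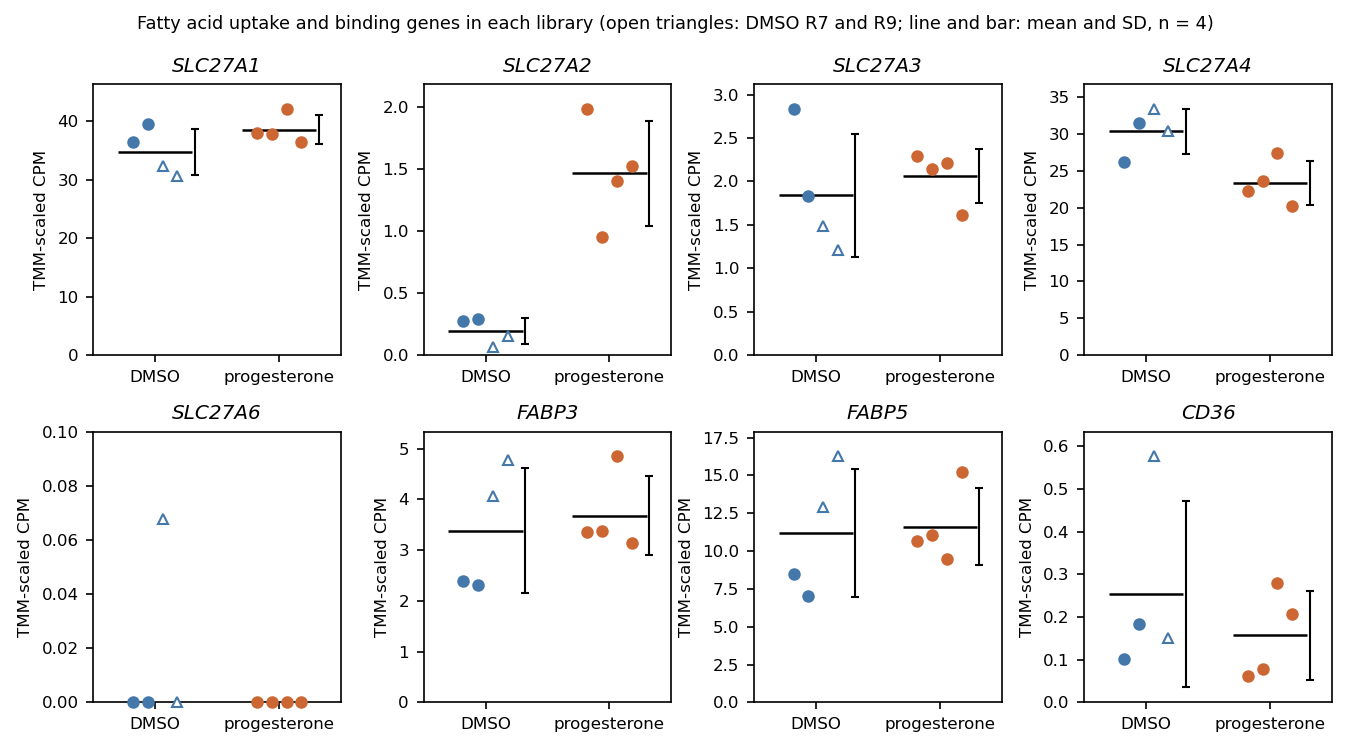
Level of each of the 8 genes in TMM-scaled CPM (vertical axis, a separate linear scale from 0 for each gene) in the 4 DMSO and 4 progesterone libraries; points are libraries, open triangles are DMSO R7 and R9, and lines with bars are group means with SD (none is drawn for SLC27A6, which has 1 value above 0). SLC27A2 separates the groups, with 0.294 CPM as the highest DMSO and 0.951 CPM as the lowest progesterone value, and for FABP3 and FABP5 the open triangles lie above the other DMSO points.

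None of the other transporters of the family was called. SLC27A4 (chromosome 11, Entrez Gene 514427) encodes FATP4, an acyl-CoA synthetase of internal membranes that is needed for the skin lipid barrier. It was at 26.2, 31.5, 33.4 and 30.4 CPM in DMSO R1, R3, R7 and R9, and at 22.3, 23.7, 27.4 and 20.3 CPM in progesterone R1, R2, R3 and R6. The progesterone libraries were the lower ones except that progesterone R3 lay above DMSO R1. The means were 30.4 ± 3.04 and 23.4 ± 2.99 CPM (SD, n = 4 each), 1.30-fold lower with progesterone with an interval of 1.08 to 1.55, and this did not pass over all genes (log2 fold change -0.38 ± 0.12 SE, edgeR adjusted p = 0.0913). Without DMSO R7 and R9 the log2 fold change was -0.29 (edgeR adjusted p = 0.317). It passed without DMSO R1 (edgeR adjusted p = 0.0418), a setting in which 1782 genes passed, and in DESeq2 (adjusted p = 0.0457), which called 1900 genes.

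SLC27A1 (chromosome 7, Entrez Gene 513787) encodes FATP1, the insulin-responsive transporter of muscle and fat. Its values were 36.4, 39.5, 32.3 and 30.7 CPM in DMSO R1, R3, R7 and R9, and 37.9, 37.9, 42.1 and 36.4 CPM in progesterone R1, R2, R3 and R6. Both ranges overlapped, and the 2 lowest values of all 8 libraries were those of DMSO R7 and R9. The log2 fold change was 0.15 ± 0.10 SE, with a 95% interval of -0.07 to 0.38 (edgeR adjusted p = 0.354), and 0.04 without R7 and R9.

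SLC27A4 and SLC27A1 had log2 fold changes of opposite sign, and their ratio within a library, which no scaling between libraries enters, was computed after their values were seen and was not tested. SLC27A4 over SLC27A1 was 0.720, 0.798, 1.03 and 0.990 in DMSO R1, R3, R7 and R9, and 0.588, 0.625, 0.651 and 0.557 in progesterone R1, R2, R3 and R6. Each progesterone library was below each DMSO library, and the 2 DMSO libraries nearest to the progesterone range were R1 and R3. The ratio does not tell which gene of the pair accounts for the separation.

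SLC27A3 (chromosome 3, Entrez Gene 511053), an acyl-CoA synthetase of the family with little uptake activity of its own, varied most within DMSO among the tested members apart from SLC27A2, with a coefficient of variation of 38.4%. It was at 2.83, 1.84, 1.49 and 1.21 CPM in DMSO R1, R3, R7 and R9, and at 2.29, 2.14, 2.21 and 1.61 CPM in progesterone R1, R2, R3 and R6. The progesterone values all lay within the DMSO range. The log2 fold change was 0.16 ± 0.30 SE (edgeR adjusted p = 0.744), and -0.16 without R7 and R9.

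SLC27A6 (chromosome 7, Entrez Gene 537062), the transporter FATP6 known from heart and also found in bovine mammary tissue, was below the filter. It had 2 counts in DMSO R7 and 0 counts in the other 7 libraries, so each library at 0 allows a level of up to 0.0917 to 0.124 CPM by counting error alone. No comparison between the groups was made for it. SLC27A5, the bile acyl-CoA synthetase of the same family and not one of the 8 genes, was at 0.102 to 0.918 CPM, with its 2 lowest values in DMSO R7 and R9 and a log2 fold change of 0.20 ± 0.60 SE, or -0.56 ± 0.39 SE without them, and passed in neither case.

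FABP3 and FABP5 shared the split of the DMSO libraries, with R7 and R9 above R1 and R3, but not the order of the progesterone libraries. FABP3 (chromosome 2, Entrez Gene 281758), the heart-type carrier that is also the main one of lactating mammary tissue, was at 2.39, 2.31, 4.07 and 4.77 CPM in DMSO R1, R3, R7 and R9. In progesterone R1, R2, R3 and R6 it was at 3.36, 3.37, 4.85 and 3.14 CPM. The progesterone libraries lay between the 2 pairs of DMSO libraries, except that progesterone R3 was above them all. With all libraries the log2 fold change was 0.12 ± 0.28 SE, with a 95% interval of -0.50 to 0.75 (edgeR adjusted p = 0.804).

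FABP5 (chromosome 14, Entrez Gene 281760) is the epidermal-type carrier, which can deliver fatty acids and retinoic acid to the nuclear receptor PPARD. It was at 8.47, 7.01, 12.9 and 16.3 CPM in DMSO R1, R3, R7 and R9, and at 10.7, 11.1, 9.48 and 15.3 CPM in progesterone R1, R2, R3 and R6. All 4 progesterone values lay above DMSO R1 and R3 and below DMSO R9. The log2 fold change was 0.06 ± 0.26 SE, with an interval of -0.52 to 0.64 (edgeR adjusted p = 0.902).

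Within the vehicle group the mean of R7 and R9 was 1.88 times that of R1 and R3 for FABP3 and 1.89 times for FABP5. Against DMSO R1 and R3 alone the log2 fold change with progesterone was 0.66 ± 0.25 SE for FABP3 and 0.60 ± 0.20 SE for FABP5. These are 1.58-fold and 1.51-fold, and neither passed over all genes (edgeR adjusted p = 0.230 and 0.184). In that comparison SLC27A2, FABP3 and FABP5, 3 of 6 tested members, were without overlap between the groups, which held for 26.8% of genes. The same 3 had an unadjusted p under 0.05, as had 15.9% of genes. SLC27A2 could enter this test only by being high in progesterone, so both counts describe the tested genes and show no excess. The size of the FABP3 and FABP5 differences thus depended on which vehicle libraries were taken as the reference, and their sign turned when DMSO R1 or DMSO R3 was left out, to -0.01 and -0.02 for FABP3 and to -0.05 and -0.11 for FABP5. Without progesterone R3 the log2 fold change of FABP3 was -0.04, and without progesterone R6 that of FABP5 was -0.10. The summed stromal markers were also highest in DMSO R7 and R9, as were most genes of that list. These were COL1A1 (6554 and 5295 CPM), COL1A2 (6376 and 6652 CPM), COL3A1 (341 and 342 CPM) and LUM (164 and 174 CPM). PDGFRA (25.7 and 27.9 CPM), THY1 (22.5 and 24.8 CPM) and POSTN (40.2 and 43.7 CPM) were highest there too. DCN (268 and 281 CPM) and PDGFRB (2.21 and 3.97 CPM) were lowest there, and VIM was neither. The part of these markers in the FABP3 and FABP5 levels was not tested. In bulk RNA fewer cells carrying a transcript and less of it per cell cannot be told apart.

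**Figure D2:**
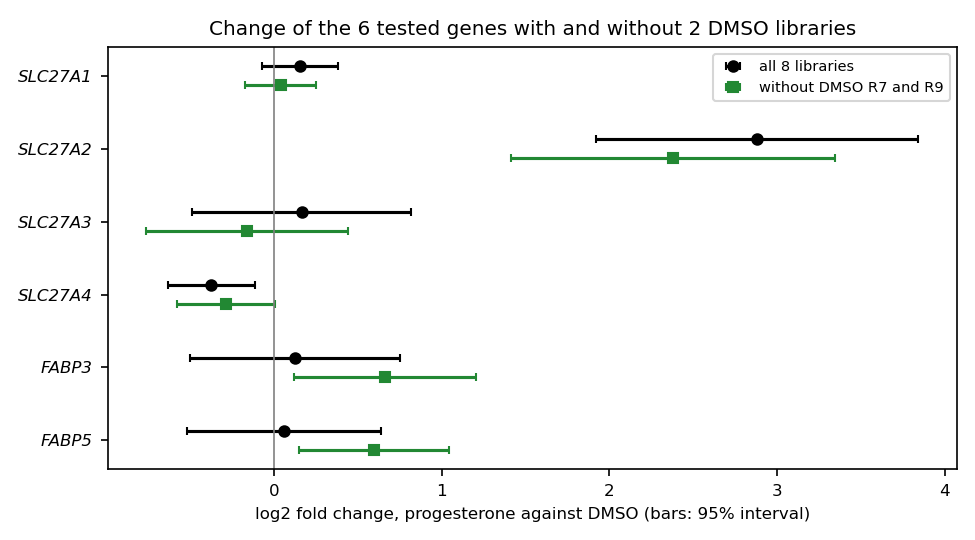
Log2 fold change of the 6 tested genes between progesterone and DMSO (horizontal axis), with 95% intervals, for all 8 libraries (black circles) and without DMSO R7 and R9 (green squares). SLC27A2 lies at 2.88 and 2.38, while FABP3 moves from 0.12 to 0.66 and FABP5 from 0.06 to 0.60.

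**Figure D3:**
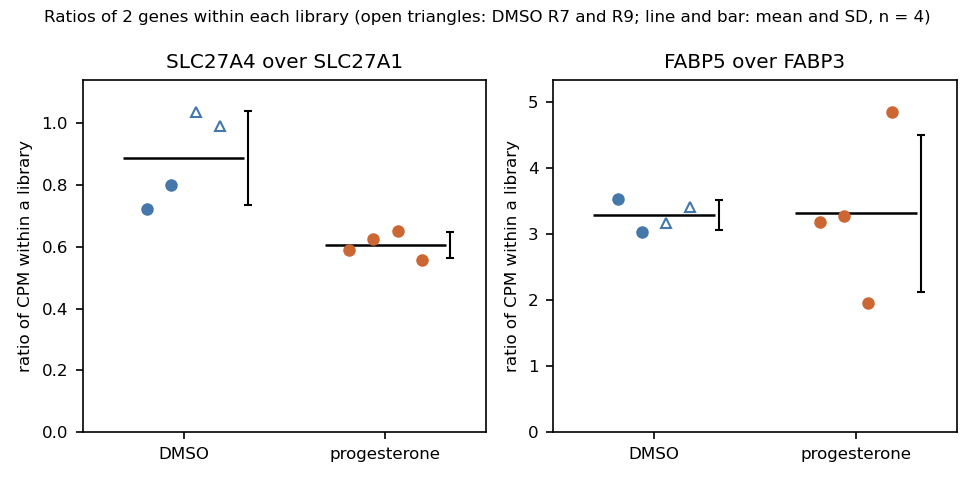
Ratio of 2 genes within each library (vertical axis, from 0), by group; points are libraries, open triangles are DMSO R7 and R9, and lines with bars are means with SD. SLC27A4 over SLC27A1 lies between 0.720 and 1.03 with DMSO and between 0.557 and 0.651 with progesterone, while FABP5 over FABP3 lies between 3.03 and 3.54 with DMSO and between 1.96 and 4.86 with progesterone.

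The ratio of FABP5 to FABP3 varied little over the DMSO libraries, at 3.54, 3.03, 3.18 and 3.41 in R1, R3, R7 and R9. With progesterone it was 3.18 and 3.28 in R1 and R2, but 1.96 in R3, where FABP3 was high, and 4.86 in R6, where FABP5 was high. The means were 3.29 ± 0.230 and 3.32 ± 1.19 (SD, n = 4 each), and this ratio, also chosen after the values were seen, was not tested.

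CD36 (chromosome 4, Entrez Gene 281052) was near the floor and below the filter. Its counts were 3, 5, 17 and 4 in DMSO R1, R3, R7 and R9, and 2, 2, 8 and 5 in progesterone R1, R2, R3 and R6. The 17 counts of DMSO R7 made up most of the 29 counts of its group, and the other 7 libraries held 8 counts or fewer. Tested with no filter, its log2 fold change was -0.67 ± 0.72 SE (edgeR adjusted p = 0.584), and 0.13 ± 0.86 SE without DMSO R7 and R9. Its sign thus turned when they were left out, but of these libraries only R7 was high. Each SE was larger than its log2 fold change, so no direction was settled. With all libraries and no filter the 95% interval of its log2 fold change ran from -2.21 to 0.88, so a difference within that range was not resolved. A second gene described as CD36 in the table, beside it in the reference assembly (LOC518526), had 0 counts throughout, and reads shared between such copies are assigned by a model in estimated counts. Endothelial cells and macrophages are known to carry much CD36. All 8 endothelial markers were detected, summing to 3.22 to 5.21 CPM with DMSO and 3.96 to 6.78 CPM with progesterone, with VWF at 1.59 to 5.50 CPM, TEK at 0.410 to 1.02 CPM and CDH5 at 0 to 0.170 CPM. Of the macrophage markers CD14 was at 3.14 to 11.9 CPM, CD163 at 0.0827 to 1.06 CPM and CSF1R at 0 to 0.113 CPM. The endothelial and the leukocyte and macrophage markers went both ways in DMSO R7 and R9. CD163 was highest there (0.780 and 1.06 CPM). So were KDR, TIE1, CDH5, AIF1 and CD3E, which were at 0.340 CPM or less in every library. CD14 (3.94 and 3.14 CPM) and VWF (1.66 and 1.59 CPM) were lowest there. The part of such cells in the CD36 counts was not tested.

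There were 3 genes that had the pattern over libraries most like that of SLC27A2, by Pearson correlation of log2 CPM over the 8 libraries among tested genes with a symbol. They were MTUS1, a microtubule-associated tumour suppressor (r = 0.987), MAPRE3, a protein of growing microtubule ends (0.984), and FLOT1, flotillin 1, a scaffold of membrane lipid rafts (0.981). FLOT1 went from 156 ± 25.4 to 244 ± 14.6 CPM and MAPRE3 from 21.8 ± 1.68 to 31.2 ± 1.71 CPM (SD, n = 4 each). When R7 and R9 were left out, the log2 value went from 1.15 to 0.97 for MTUS1, from 0.64 to 0.47 for FLOT1 and from 0.52 to 0.44 for MAPRE3, which then did not pass (edgeR adjusted p = 0.0656). These r values describe 8 libraries in 2 separated groups and carry no test. Beside SLC27A2 in the reference assembly lie HDC and ATP8B4, and neither was called. HDC, the histidine decarboxylase, had 0 counts in 7 libraries and was at 0.0351 CPM in progesterone R3, and ATP8B4, a phospholipid flippase, had a log2 fold change of -0.83 ± 0.31 SE (edgeR adjusted p = 0.129), or -0.19 without R7 and R9, its 2 highest libraries.

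Around the 8 genes, most other members of both families had no counts. Of 9 further SLC27 and FABP genes, 6 had 0 counts in every library (FABP1, FABP6, FABP7, FABP9, FABP12 and PMP2), 2 were tested and none passed. FABP4, the adipocyte carrier on the same chromosome as FABP5, was at 0.512, 0.330, 1.53 and 2.53 CPM in DMSO R1, R3, R7 and R9, and at 0.520, 0.832, 0.773 and 2.77 CPM in progesterone R1, R2, R3 and R6. Its high vehicle libraries were again R7 and R9, and its log2 fold change was -0.01 ± 0.69 SE, or 1.51 without them (edgeR adjusted p = 0.344).

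The long-chain acyl-CoA synthetases activate fatty acids once inside. Of 7, 5 were tested, 1 rose and 4 did not pass. ACSL4, which prefers arachidonic acid, rose from 485, 548, 546 and 585 CPM in DMSO R1, R3, R7 and R9 to 905, 922, 941 and 785 CPM in progesterone R1, R2, R3 and R6. There was no overlap, and the log2 fold change was 0.72 ± 0.10 SE (edgeR adjusted p = 0.00976), and 0.80 without R7 and R9 (0.00855). ACSL3, of lipid droplets, was at 304 ± 86.7 and 267 ± 8.07 CPM (SD, n = 4 each; edgeR adjusted p = 0.507), with 381 and 377 CPM in DMSO R7 and R9 against 222 and 236 CPM in R1 and R3. Its log2 fold change was -0.19 ± 0.18 SE with all libraries and 0.23 ± 0.09 SE without R7 and R9 (edgeR adjusted p = 0.221), where the progesterone libraries all lay above the DMSO ones.

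Of 13 uptake partners and lipoprotein routes, 12 were tested, 1 rose and 11 did not pass. SCARB1, the HDL receptor and a relative of CD36, was at 144, 145, 131 and 133 CPM in DMSO R1, R3, R7 and R9, and at 180, 168, 186 and 169 CPM in progesterone R1, R2, R3 and R6. There was again no overlap, and SCARB1 rose 1.27-fold, or 0.35 ± 0.08 SE on the log2 scale (edgeR adjusted p = 0.0459). It did not pass without R7 and R9 (0.30, edgeR adjusted p = 0.123). CAVIN1, which shapes caveolae, had a log2 fold change of -0.22 ± 0.09 SE and the endocytic receptor LRP1 one of 0.15 ± 0.13 SE, or -0.24 and 0.073 without R7 and R9, and neither passed.

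Further along the route none was called among the acyl-CoA binding proteins (0 of 5 tested), lipid droplet genes (0 of 16), the carnitine shuttle into mitochondria (0 of 5), PPAR and RXR receptors with coactivators (0 of 6) or PPAR target genes (0 of 7, 3 of them in other lists here). Unadjusted p was under 0.05 for 2, 5, 1, 2 and 1 genes of these lists, to be read against 26.8% of all genes. Their median log2 fold changes were 0.10, 0.06, 0.19, 0.16 and -0.01, and -0.0028, -0.0051, 0.07, 0.26 and 0.0046 without R7 and R9. DBI, the acyl-CoA binding protein, had a log2 fold change of 0.57 ± 0.16 SE (edgeR adjusted p = 0.0761) and ACBD3 one of 0.08 ± 0.09. PLIN3, which coats lipid droplets, was at 0.06 ± 0.12 and the triglyceride lipase PNPLA2 at 0.47 ± 0.23. CPT1A, the gate of mitochondrial entry, was at 0.16 ± 0.13 and CPT2 at -0.15 ± 0.09. The fatty acid receptor PPARD was at 0.14 ± 0.10, its partner RXRA at 0.40 ± 0.15 and the dehydrogenase ACADVL at 0.08 ± 0.09 (log2 fold change ± SE in each case), and none of these passed. When R7 and R9 were left out, log2 fold changes were 0.44 for DBI, -0.0028 for ACBD3, -0.030 for PLIN3, 0.14 for PNPLA2, 0.070 for CPT1A, -0.18 for CPT2, 0.18 for PPARD, 0.19 for RXRA and 0.10 for ACADVL. The values of PNPLA2 and RXRA thus shrank, those of ACBD3 and PLIN3 turned sign, and none of the 9 passed. All lists were chosen with earlier results of these data known.

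**Figure D4:**
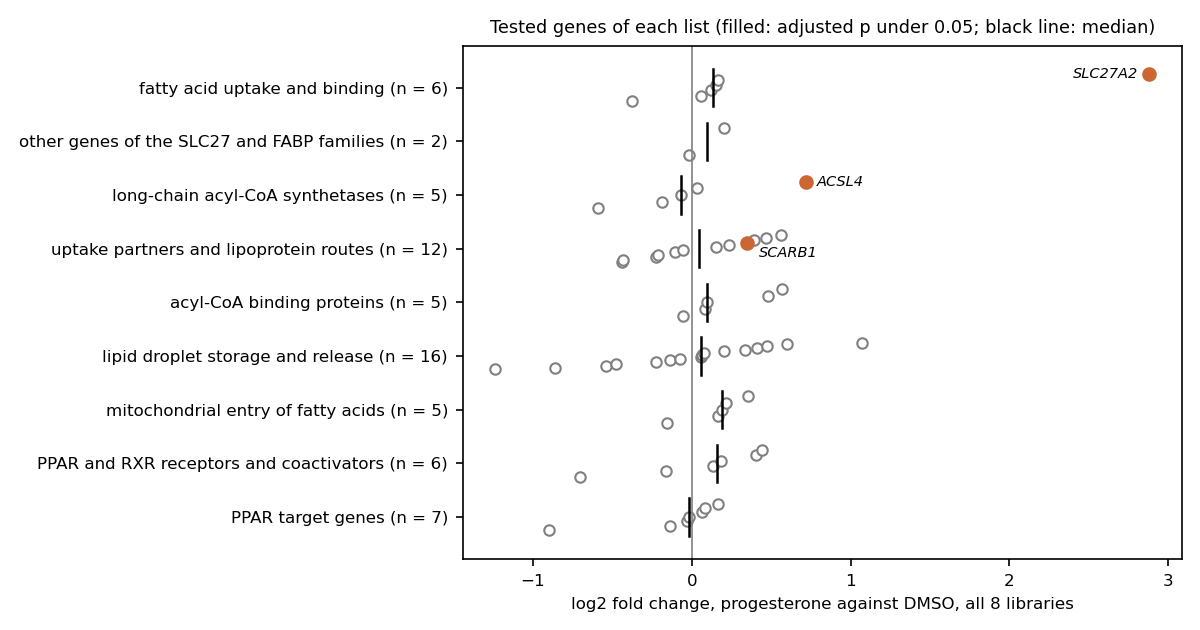
Log2 fold change (horizontal axis, progesterone against DMSO, all 8 libraries) of every tested gene in the 9 lists of fatty acid handling; filled points passed an adjusted p of 0.05 and black lines are list medians. SLC27A2, ACSL4 and SCARB1 are the filled points, at 2.88, 0.72 and 0.35.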

How the data were processed

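Libraries were made from total RNA with a stranded mRNA kit, per the labels' protocols. The authors deposited 1 table of estimated counts by gene. Of its making, bcl2fastq, Salmon 1.4.0 and genome build ARS-UCD1.2 are listed in the submitters' processing notes without their roles. The table's name speaks of length normalization, whose form the file header does not give. Columns give a library's group but not its sample.

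Estimated counts were rounded, filtered with filterByExpr (13557 genes kept), scaled by TMM and tested with edgeR 4.0.16 in R 4.3.3 (quasi-likelihood, robust, two-sided, with no term besides group). P-values were Benjamini-Hochberg adjusted over all genes. CPM values are TMM-scaled. No 2 libraries of a group agreed within sampling noise (chi-square per degree of freedom 14.2 to 129).

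Alternatives were 3 other scalings, 2 other filters, DESeq2 1.42.0, limma 3.58.1 voom, a threshold of 0.01, unrounded counts, dispersion without robust estimation, each library left out, R7 and R9 left out or modelled, and the column number as a block. For CD36, the fit without R7 and R9 and without a filter was added after seeing the data. All members and lists were chosen with earlier results of these data known. Named genes are every member, in each list those called (up to 4) and, with fewer than 2, the 2 of highest mean CPM, and the 3 genes most correlated with a called member; neighbours and others were named beyond this rule. No coordinates are printed, since the reference gene table (ARS-UCD2.0) is of another build; it gave gene order and synonyms. Division by transcript length was not run.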

Additional observations from a re-analysis of the deposited data

Results flagged for a closer look

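Among 15 sets of 4 library values (8 genes in both groups, leaving out SLC27A6 with progesterone, where all were 0), 2 held a library far from the other 3; about 1 in 20 such sets does so by chance. FABP3 in progesterone R3 was at 4.85 CPM, against 3.14 to 3.37 CPM in the other progesterone libraries. SLC27A6 in DMSO R7 was at 0.0679 CPM, which is 2 counts, against 0 in the other DMSO libraries. A set with 1 value above 0 is always flagged, so the share by chance does not apply to it.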

How the results depend on the processing

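Of the members, 1 passed, against 0 with a mean of at least 1 CPM (SLC27A2 removed), 0 at an adjusted p under 0.01, 2 in DESeq2 (SLC27A2 and SLC27A4) and between 0 and 2 when 1 library was left out. Over all genes 359 passed, against 1900 in DESeq2, 27 at the threshold of 0.01, 162 without DMSO R7 and R9, and between 42 (without progesterone R1) and 1782 (without DMSO R1) when 1 library was left out. The count was above 359 without DMSO R1 or R3 and at most 82 without any 1 of the other 6. SLC27A2 kept its direction in all 20 alternatives that tested it (log2 fold change 2.37 to 3.13) and its call in 17 of them. SLC27A1 did not pass and stayed positive in 21 of 21, and SLC27A4 stayed negative in 21 of 21.

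Signs turned for SLC27A3 to -0.16 without R7 and R9, -0.18 with a model term for them and -0.0399 with the block. When 1 library was left out FABP3 ranged from -0.0376 (without progesterone R3) to 0.331 (without DMSO R9), with -0.0114 and -0.0196 without DMSO R1 and R3. FABP5 ranged from -0.109 (without DMSO R3) to 0.294 (without DMSO R9), with -0.0532 without DMSO R1 and -0.0984 without progesterone R6. CD36 was at 0.13 without R7, R9 and a filter. The causes were not tested. The column numbers 1 and 3 occur in both groups, and the labels do not say that a number pairs libraries. In a block by column number, DMSO R7 and R9 and progesterone R2 and R6 each stand alone. The group difference of that fit therefore rests on the R1 and R3 libraries only. With the column number as a replicate block 2531 genes and 3 members (SLC27A2, FABP3 and FABP5) passed, with log2 fold changes of 0.78 for FABP3 (edgeR adjusted p = 0.0103) and 0.38 for FABP5 (0.0438). Library deviations from the group means correlated at 0.226 and 0.210 for the column numbers 1 and 3. The low counts of SLC27A2 with DMSO, CD36 and SLC27A6 limit their precision.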

Other observations

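PPARG, the fatty acid receptor of adipocytes, and LPL, the lipase that frees fatty acids from lipoproteins, were singled out after their values were seen. PPARG was at 0.410 and 0.991 CPM in DMSO R1 and R3, 5.12 and 4.69 CPM in DMSO R7 and R9, and 1.19 to 2.03 CPM with progesterone. LPL was at 0.0683 and 0.0734 CPM in DMSO R1 and R3, which is 2 counts each, 0.509 and 0.908 CPM in R7 and R9, and 0.455 to 0.832 CPM with progesterone. For both, as for FABP3 and FABP5, R7 and R9 held the highest vehicle values, and the progesterone libraries lay above DMSO R1 and R3. With R7 and R9 left out, 26.8% of the 13764 genes tested had no overlap between the groups, in either direction. In edgeR neither passed: the adjusted p was 0.515 for PPARG and 0.618 for LPL with all libraries, and 0.155 and 0.0538 when R7 and R9 were left out. PPARA, the receptor of fatty acid oxidation, was at 37.3 to 48.6 CPM with DMSO and 52.5 to 64.2 CPM with progesterone, without overlap, and did not pass (0.44 ± 0.11 SE on the log2 scale with an edgeR adjusted p = 0.0626, and 0.32 with 0.189 when R7 and R9 were left out). Of the 5 adipocyte markers ADIPOQ had a count of 0 in every library and LEP in 7, while LIPE (8.55 to 16.3 CPM), PLIN1 (2.21 to 3.63 CPM) and CIDEC (0.744 to 2.17 CPM) were detected in all, and their part in these values was not tested.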
